A study of Mus musculus with 18 samples.

Results

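Splicing factors and the proteins of small nuclear ribonucleoproteins (snRNPs) work in the nucleus, and their mRNAs were measured here in RNA that came down with the kinesin motor protein Kif5A from mouse axoplasm. The genes were chosen by name: those starting with Srsf, Snrp, Prpf, Sf3a, Sf3b or U2af, plus Srrt, Srrm1 and Srrm2, pseudogene names left out. The rule took 50 of the 12697 named genes that had a transcript in both deposited tables. These 50 genes had 108 transcripts in either table and 89 in both. Prpf8, a core protein of the spliceosome that the same rule would take, was not analysed here.

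Axoplasm, the cytoplasm pressed out of nerve fibres, was prepared from the dorsal roots and from the sciatic nerves of the same C57B6 mice, for which the labels give no mutation, treatment or age. Each biological repeat pooled 5 animals, and 3 independent repeats were made. From each tissue there were 3 precipitates with a rabbit antibody to Kif5A, 3 with rabbit IgG as the isotype control and 3 libraries of the input lysate, 18 in all. About 200 ug of lysate had been incubated with 10 ug of antibody for 3 hours. The preparation takes in what is soluble in ground tissue, and RNA of Schwann cells and other nerve cells was present beside that of axons, so whether a level followed fewer cells of a type or less RNA per cell cannot be told apart in such bulk samples.

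Spliceosomes remove introns from pre-mRNA. Their snRNPs each hold a small nuclear RNA inside a ring of Sm proteins (Snrpb, Snrpd1, Snrpd2, Snrpd3, Snrpe, Snrpf, Snrpg), and U2AF, SF3A and SF3B bring the U2 snRNP to the branch point and the 3′ end of the intron. SR proteins (the Srsf genes) bind exons and recruit this machinery. Many SR protein genes hold their own protein level in check through poison exons or kept introns, which bring in an early stop codon and send the transcript to nonsense-mediated decay or hold it in the nucleus. Kif5A is a heavy chain of kinesin-1, which moves cargo along microtubules towards the axon tip, RNA granules among it.

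Of the 89 transcripts in both tables, 53 are annotated as coding and 36 as noncoding, which here means a kept intron (retained_intron), a target of nonsense-mediated decay or a processed transcript in GENCODE M21. For 4 genes, Prpf38b, Prpf40b, Snrpb and Srrm1, only noncoding transcripts were in both tables, so their values are not those of a coding mRNA. Coding transcripts alone stood for 29 genes and both classes for 17. Stretches that hold the premature stop or a kept-intron border of some noncoding transcripts are printed here from the GENCODE M21 transcripts (GRCm38). Several of the largest ratios in the precipitates sat on the transcripts that carry them. The first 4 are the ends of the reading frames of decay targets, 5′ to 3′, with the premature stop codon in capitals. The Srsf6-201 stretch is the start of an exon of 268 bases at chr2:162932815-162933082 (plus strand) that the coding transcript Srsf6-203 lacks, a poison exon. Prpf39-202 gains an exon of 69 bases at chr12:65043543-65043611 (plus strand), Srsf11-206 one of 109 bases at chr3:158024123-158024231 (minus strand) and Snrpb-203 one of 124 bases at chr2:130176629-130176752 (minus strand). Of the 60 bases printed for each of these, only the last belong to the gained exon: 9 in Prpf39-202, 23 in Srsf11-206 and 58 in Snrpb-203. The bases before them lie upstream of that exon.
Srsf6-201: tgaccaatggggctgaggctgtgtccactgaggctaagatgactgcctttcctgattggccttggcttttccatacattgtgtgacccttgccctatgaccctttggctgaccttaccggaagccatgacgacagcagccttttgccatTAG
Prpf39-202: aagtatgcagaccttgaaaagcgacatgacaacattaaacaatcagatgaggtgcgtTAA
Srsf11-206: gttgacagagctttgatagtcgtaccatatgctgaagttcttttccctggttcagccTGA
Snrpb-203: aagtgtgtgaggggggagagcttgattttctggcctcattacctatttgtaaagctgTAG
From the stop to the last exon junction there were 534 bases in Srsf6-201, 1766 in Prpf39-202, 456 in Srsf11-206 and 596 in Snrpb-203, so each stop lies well upstream of that junction.

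Srsf3-204 and Snrpa1-204 keep introns that the coding transcripts Srsf3-202 and Snrpa1-206 remove. The borders of 1 kept intron of each are printed with 20 exon bases and 40 intron bases, the GT at the 5′ border and the AG at the 3′ border in capitals. The Srsf3 intron spans chr17:29038625-29040774 (plus strand, 2150 bases) and the Snrpa1 intron chr7:66069527-66070118 (plus strand, 592 bases).
Srsf3-204 5′ border: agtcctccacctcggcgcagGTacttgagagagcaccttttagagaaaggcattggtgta
Srsf3-204 3′ border: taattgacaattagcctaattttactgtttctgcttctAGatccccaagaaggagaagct
Snrpa1-204 5′ border: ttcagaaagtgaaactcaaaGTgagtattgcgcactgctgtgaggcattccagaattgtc
Snrpa1-204 3′ border: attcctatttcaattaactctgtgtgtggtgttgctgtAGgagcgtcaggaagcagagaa
Srsf3-204 keeps a further intron of 393 bases and Snrpa1-204 one of 391 bases. Reads from exons that coding and noncoding transcripts share were assigned by the authors to 1 transcript or the other in a way that no source used here gives.

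The libraries held between 11584418 and 22580824 counts on named transcripts. Levels are given in CPM, a library's named counts scaled to a common total after TMM scaling, in the order of replicates 1, 2 and 3, and ratios as log2 of the first group over the second. Of all genes, 5.65 to 9.18% had no count in an IgG library, against 0.685 to 2.01% in a Kif5A library and 0.362 to 1.06% in an input. Nuclear-retained RNAs (Malat1, Neat1 and others, 6 of 8 measured) summed to 29022 to 33698 CPM in dorsal root IgG, 13109 to 28859 in Kif5A and 2927 to 17139.5 in input, and in sciatic nerve to 23348 to 48114, 8626 to 49228 and 2305 to 18590.4 CPM. In both tissues replicate 3 was the lowest library of Kif5A and of input. The part of these RNAs in the results that follow was not tested. Markers of sensory neurons (8 of 13 measured) summed to 879 to 918 CPM in dorsal root input and 99.7 to 124 in sciatic nerve input, and those of myelinating Schwann cells (7 of 8 measured) to 20998 to 28090.1 and 17484 to 24786 CPM. In the precipitates the Schwann cell markers summed to 10592 to 19310.0 CPM in dorsal root IgG, 10045 to 18213 in Kif5A, and 5157 to 22059 and 3689 to 21293 in those of sciatic nerve. Adipocyte markers (5 of 6 measured) summed to 25438 to 81710.5 CPM in sciatic nerve IgG, 5650.1 to 53408 in Kif5A and 4043 to 13365 in input. Their part in the results was not tested either.

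In dorsal root input, the most abundant of the 50 mRNAs per length were those of 5 small Sm proteins. Snrpd1 led at 217 ± 67.6 CPM per kb (SD, n = 3), followed by Snrpe at 188 ± 36.8, Snrpg at 145 ± 23.3, Snrpd2 at 138 ± 33.2 and Snrpf at 128 ± 28.4 CPM per kb. Srsf2 had 108 ± 15.8 and Sf3b6, which touches the branch point as part of SF3B, 105 ± 7.09 CPM per kb. Neighbours in this order lay within the larger of their SDs of each other, except Snrpe and Snrpg. At the low end were Prpf19 at 0.409 ± 0.157, Prpf3 at 0.217 ± 0.111 and Prpf40b at 0.0438 ± 0.0263 CPM per kb. Sciatic nerve input gave Snrpd1 165 ± 25.1, Snrpe 160.1 ± 5.79 and Snrpg 148 ± 21.3 CPM per kb. Srsf2 came next there at 119 ± 20.99, above Snrpd2 at 112 ± 28.5 and Snrpf at 108 ± 13.7 CPM per kb, within the larger of their SDs.

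The comparison of the Kif5A with the IgG precipitate asks which RNAs came down with the motor beyond what beads and an unrelated antibody hold, and no splicing gene passed it. In dorsal root, 0 of 50 passed an adjusted p of 0.05 (percent of all genes called: 0.0%), by edgeR's quasi-likelihood test, Benjamini-Hochberg adjusted over all genes, two-sided. In sciatic nerve it was 0 of 50, against 0.0478% of all genes. The difference of this contrast between the tissues passed for 0 of 50 as well, against 0.0159% of all genes. At an unadjusted p under 0.05 there were 5 of 50 in dorsal root (5.98% of all genes), 2 in sciatic nerve (8.45%) and 5 for the difference (6.37%). DESeq2 called 0 splicing genes in dorsal root (1.21% of all genes with an adjusted p), 1 in sciatic nerve, Srsf12 (3.28%), and 0 for the difference (1.51%).

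The median splicing gene had a Kif5A over IgG log2 ratio of -0.22 in dorsal root and -0.25 in sciatic nerve, where the median of all genes tested was -0.01 and -0.02. The ratio was above 0 for 18 of 50 genes in dorsal root and 19 of 50 in sciatic nerve, against 49.3% and 49.3% of all genes. All 5 genes under an unadjusted p of 0.05 in dorsal root had less in Kif5A than in IgG, and 1.65% of all genes did so. They were Prpf4b, a kinase of the spliceosome (-1.08), Srrt, which links the cap-binding complex to RNA processing (-0.78), the U2 snRNP protein Snrpa1 (-0.99), the U1-associated Prpf39 (-1.86) and Srsf6 (-0.68). All 5 fail the correction, with edgeR adjusted p from 0.599 to 0.813.

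Against input, which asks what a precipitate holds relative to the lysate it came from, the Kif5A libraries again gave 0 of 50 in both tissues, with 0.0% of all genes called in dorsal root and 0.00789% in sciatic nerve (edgeR, as above). An unadjusted p under 0.05 was reached by 9 of 50 in dorsal root (8.39% of all genes) and 4 of 50 in sciatic nerve (6.07%). DESeq2 called 2 of the 46 to which it gave an adjusted p in dorsal root (1.64% of all genes) and 0 of 47 in sciatic nerve (0.468%). The IgG precipitates differed from input for more genes. In dorsal root, Srrt and Prpf39 rose, 2 of 50 against 1.23% of all genes called in either direction and 0.56% called higher. In sciatic nerve, Srrm2, Srrt and Prpf4b rose, 3 of 50 against 3.74% of all genes in either direction and 1.37% higher. The ratio to input was above 0 for 29 and 26 of 50 genes in Kif5A (dorsal root and sciatic nerve, against 52.8% and 51.1% of all genes) and for 35 and 29 of 50 in IgG (against 52.3% and 50.6%). No splicing gene fell by this test in either tissue, where 0.67% and 2.37% of all genes were called lower. The Kif5A and IgG comparisons with input share the same input libraries and are given side by side, not as support for each other.

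**Figure D1:**
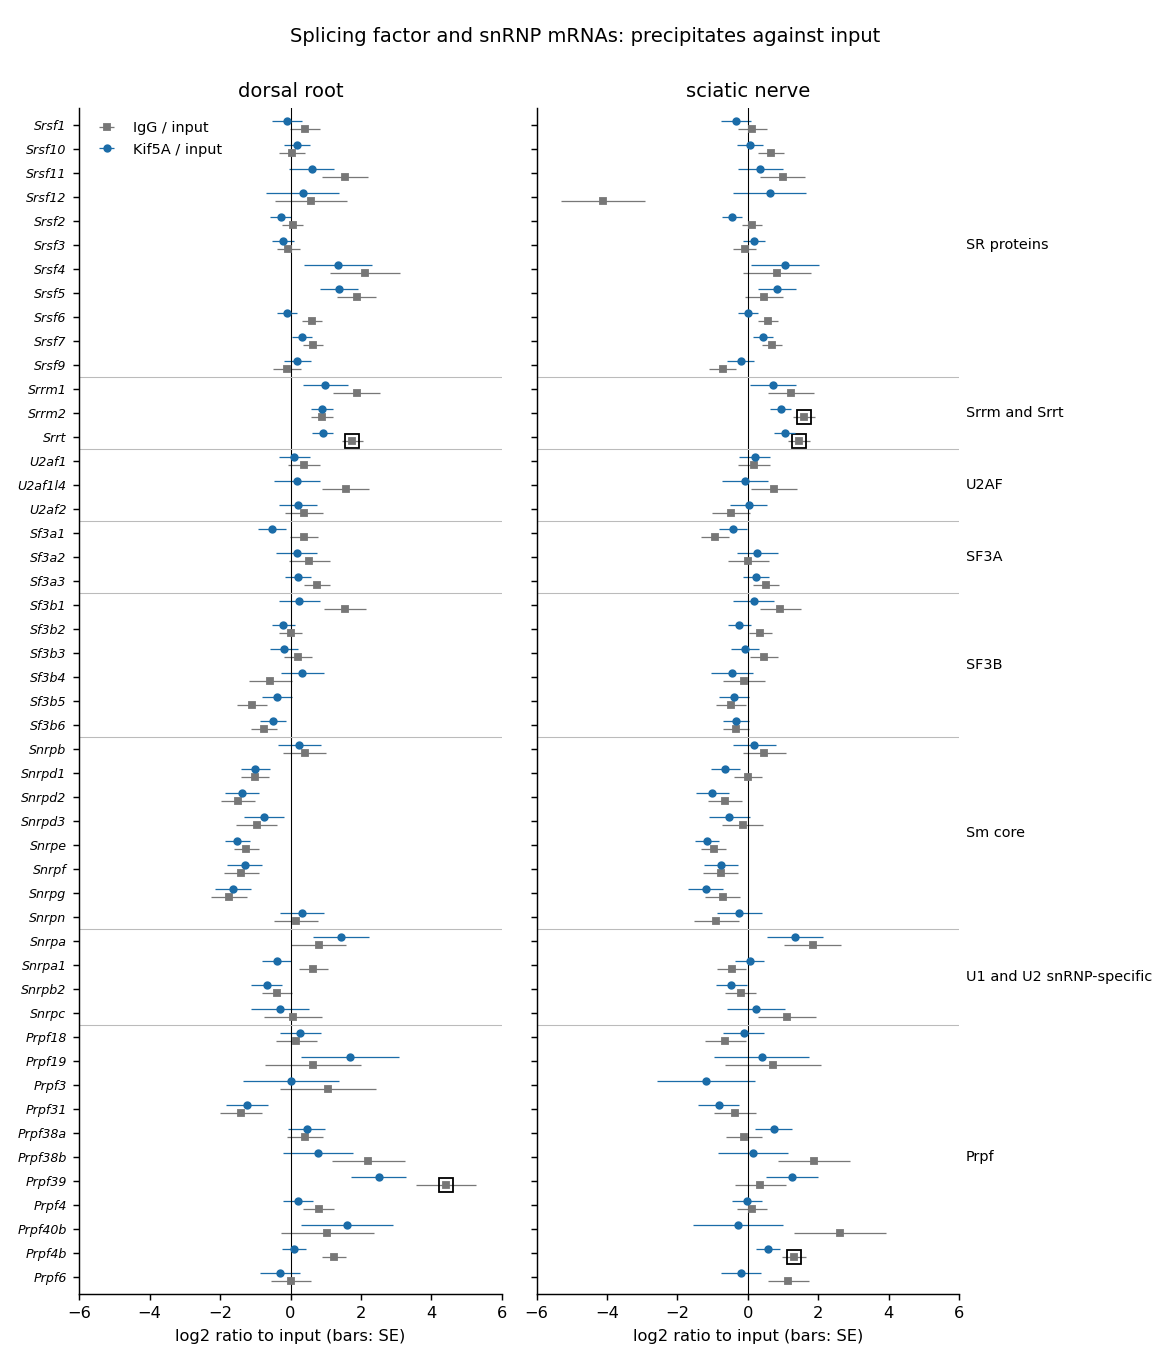
Log2 ratio to input (x axis, bars are SE) of 49 of the 50 splicing genes by role, Kif5A as circles and IgG as squares, dorsal root on the left and sciatic nerve on the right. Boxed points passed an adjusted p of 0.05 (2 in dorsal root IgG, 3 in sciatic nerve IgG), Prpf3 has no IgG point in sciatic nerve because its 3 libraries had 0 counts, and the small Sm genes lie left of 0 in most rows.

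Srrt, Srrm2 and Prpf4b code for proteins with long charged or RS-rich stretches. Srrt (chr5:137295704-137307674, GRCm38) was above its inputs in every precipitate of both tissues. Dorsal root Srrt was at 104, 126 and 109 CPM in IgG, 64.0, 63.1 and 63.1 CPM in Kif5A and 36.0, 24.7 and 39.6 CPM in input. Sciatic nerve Srrt was at 79.0, 101 and 114 CPM in IgG, 62.5, 102 and 56.8 CPM in Kif5A and 31.6, 41.1 and 34.6 CPM in input. The 3 groups of dorsal root did not overlap, with IgG highest, Kif5A between and input lowest, while Kif5A and IgG overlapped in sciatic nerve. The IgG over input log2 ratio was 1.75 (SE 0.305, adjusted p = 0.0215) in dorsal root and 1.45 (SE 0.303, adjusted p = 0.0221) in sciatic nerve, both by edgeR. Kif5A over input was 0.92 (SE 0.299, adjusted p = 0.374) and 1.05 (SE 0.300, adjusted p = 0.574), short of the threshold. The dorsal root IgG call was lost in 6 of 15 alternatives, among them without IgG replicate 1 or without any one of the 3 inputs. That of sciatic nerve was lost in 3 of 15, among them without input replicate 1 or 2.

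Srrm2, a scaffold of nuclear speckles and a part of the active spliceosome, also lay above input in each precipitate library. Dorsal root Srrm2 was at 549, 369 and 273 CPM in IgG, 429, 365 and 393 CPM in Kif5A and 254, 177 and 207 CPM in input. Sciatic nerve Srrm2 was at 579.5, 986 and 1002 CPM in IgG, 488, 749.6 and 388 CPM in Kif5A and 279, 281 and 290.4 CPM in input. Every Kif5A and IgG library was above the highest input of its tissue, and Kif5A and IgG overlapped. Its IgG over input ratio in sciatic nerve was 1.595 (SE 0.310, edgeR adjusted p = 0.0160), a call lost in 3 of 15 alternatives. The other ratios to input were 0.90 for IgG in dorsal root (adjusted p = 0.117), 0.89 for Kif5A in dorsal root (adjusted p = 0.410) and 0.94 for Kif5A in sciatic nerve (adjusted p = 0.590). Reads of Elob on the other strand overlap Srrm2 exons, and the counting is not stated to use strand.

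Prpf4b had its highest levels in IgG. Dorsal root Prpf4b was at 314, 194 and 163 CPM in IgG, 97.0, 103 and 107 CPM in Kif5A and 104, 98.3 and 81.8 CPM in input. Sciatic nerve Prpf4b was at 212, 407 and 214 CPM in IgG, 116, 226 and 153 CPM in Kif5A and 130.3, 130.05 and 73.9 CPM in input. Dorsal root IgG did not overlap with either of the other groups there, and Kif5A overlapped with input. In sciatic nerve the IgG over input log2 ratio was 1.32 (SE 0.347, adjusted p = 0.0455), and in dorsal root 1.24 (SE 0.346, adjusted p = 0.0714), both by edgeR. That sciatic nerve call was lost in 8 of 15 alternatives, among them without IgG replicate 1 or 2, without any one of the inputs, and under library size scaling alone. Kif5A over IgG was -1.08 in dorsal root and -0.70 in sciatic nerve, neither past the threshold (adjusted p = 0.599 and 0.659).

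**Figure D2:**
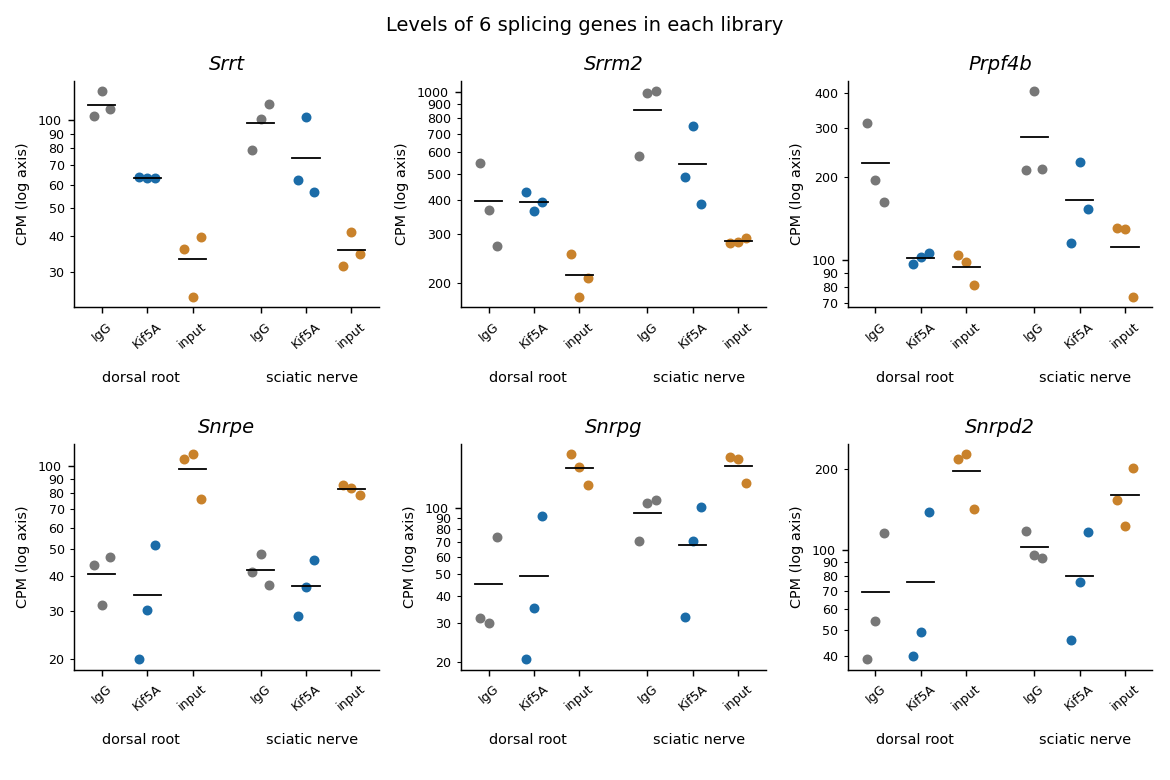
CPM in each library (log y axis, each point 1 library, black bar the mean of 3) of Srrt, Srrm2, Prpf4b, Snrpe, Snrpg and Snrpd2 in IgG, Kif5A and input of both tissues. For Srrt and Srrm2 all precipitate libraries lie above their inputs, and for Snrpe, Snrpg and Snrpd2 all lie below.

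Srrm1, a coactivator that joins SR proteins to the exon junction, was measured by noncoding transcripts alone. Dorsal root Srrm1 was at 24.2, 22.9 and 7.17 CPM in IgG, 14.6, 8.44 and 6.31 CPM in Kif5A and 7.43, 3.26 and 4.04 CPM in input. Sciatic nerve Srrm1 was at 6.37, 11.7 and 4.40 CPM in IgG, 6.62, 4.90 and 4.25 CPM in Kif5A and 2.71, 3.54 and 3.36 CPM in input. Its ratios to input were 1.88 for dorsal root IgG and 1.22 for sciatic nerve IgG, with Kif5A at 0.99 and 0.72, and none passed the threshold. Replicate 3 of both dorsal root precipitates lay within the range of the inputs, whereas all 6 precipitates of sciatic nerve lay above theirs. Srrt, Srrm1 and Srrm2 together summed to 677, 517 and 389.7 CPM in dorsal root IgG, 508, 437 and 462 in Kif5A and 297, 205 and 251 in input, most of it Srrm2.

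Summed together, the Sm core genes had lower values in the precipitates than in input. Of 8 genes of the ring (Snrpn is a brain and neuron form of Snrpb), 2 had a Kif5A over input ratio above 0 in dorsal root and 1 in sciatic nerve, with medians of -1.15 and -0.69. For IgG over input it was 2 and 2 of 8, with medians of -1.13 and -0.68. None of the 8 passed the threshold. Their summed level was 257, 328 and 725 CPM in dorsal root IgG, 287, 343 and 761 in Kif5A and 1094, 1088 and 762 in input. Sciatic nerve gave 727, 584 and 565 CPM in IgG, 298, 489 and 675 in Kif5A and 859, 776 and 905 in input. All precipitates thus lay below the inputs of their tissue, with replicate 3 of dorsal root close to its input in both precipitates.

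Snrpe, Snrpg, Snrpd2 and Snrpf were below every input in all Kif5A libraries of both tissues, and Prpf31 as well by its summed transcripts. Over all genes, 4.91% were so placed in both tissues, so 5 of 50 is above that share and is given as a description. Dorsal root Snrpe was at 44.1, 31.4 and 47.1 CPM in IgG, 19.97, 30.3 and 52.1 CPM in Kif5A and 106, 111 and 75.8 CPM in input. Sciatic nerve Snrpe was at 41.3, 48.1 and 37.3 CPM in IgG, 28.7, 36.4 and 45.6 CPM in Kif5A and 85.2, 83.6 and 78.8 CPM in input. No Snrpe library of a precipitate reached the lowest input. Kif5A over input was -1.52 (SE 0.355, unadjusted p = 0.000481, adjusted p = 0.282) in dorsal root and -1.16 (SE 0.352, adjusted p = 0.579) in sciatic nerve by edgeR, and DESeq2 called it in dorsal root. IgG over input was -1.26 (adjusted p = 0.0714) and -0.97 (adjusted p = 0.135).

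Snrpg showed the same order with a wider spread. Dorsal root Snrpg was at 31.7, 30.1 and 74.2 CPM in IgG, 20.6, 35.1 and 92.5 CPM in Kif5A and 176, 154 and 127 CPM in input. Sciatic nerve Snrpg was at 71.0, 105 and 109 CPM in IgG, 32.1, 70.9 and 101 CPM in Kif5A and 171, 167 and 130.2 CPM in input. Replicate 3 was the highest precipitate of dorsal root in both arms and stayed below all inputs. The Kif5A over input ratio was -1.63 (SE 0.510) in dorsal root and -1.20 (SE 0.504) in sciatic nerve, not past the threshold. Snrpd2 and Snrpf had ratios of -1.37 and -1.30 in dorsal root and -1.004 and -0.76 in sciatic nerve.

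Snrpd1, Snrpd3, Snrpn and Snrpb differed from these. Snrpd1 was at 44.7, 91.7 and 141 CPM in dorsal root IgG, 65.2, 81.4 and 133 in Kif5A and 219.5, 219.3 and 119 in input. In sciatic nerve it was at 176, 144 and 108 CPM in IgG, 56.7, 111 and 107 in Kif5A and 158, 151 and 117 in input. Both dorsal root precipitates of Snrpd1 overlapped with input, as did IgG in sciatic nerve, where Kif5A lay below all inputs. Dorsal root Snrpd3 was at 33.9, 50.8 and 227 CPM in IgG, 75.7, 73.2 and 211 CPM in Kif5A and 206, 221 and 178 CPM in input. Sciatic nerve Snrpd3 was at 235, 121 and 136 CPM in IgG, 74.6, 111 and 193 CPM in Kif5A and 168, 155 and 221 CPM in input. Both dorsal root precipitates of Snrpd3 held a high replicate 3 that lay within or above the input range. Dorsal root Snrpn was at 40.01, 24.6 and 38.2 CPM in IgG, 36.7, 35.0 and 44.4 CPM in Kif5A and 30.8, 30.6 and 30.8 CPM in input. Sciatic nerve Snrpn was at 17.8, 9.67 and 11.3 CPM in IgG, 17.5, 13.5 and 30.1 CPM in Kif5A and 8.63, 6.21 and 57.1 CPM in input. Snrpn, which overlaps Snurf on the same strand, reached 57.1 CPM in sciatic nerve input replicate 3 alone.

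Dorsal root Snrpb was at 4.88, 14.0 and 7.17 CPM in IgG, 5.75, 6.60 and 11.1 CPM in Kif5A and 6.87, 5.40 and 7.43 CPM in input. Sciatic nerve Snrpb was at 18.2, 11.7 and 5.67 CPM in IgG, 10.3, 7.02 and 11.8 CPM in Kif5A and 8.08, 6.30 and 11.3 CPM in input. These Snrpb values sum the kept-intron transcript Snrpb-202 and Snrpb-203, the decay target with the premature stop printed above, and the groups overlapped in both tissues. Snrpb-202 was the higher of the pair in all libraries but dorsal root IgG replicate 1 (2.40 against 2.47 CPM) and sciatic nerve IgG replicate 3 (2.22 against 3.45 CPM). The coding Snrpb transcripts were not in both tables. Short Sm genes have processed pseudogenes, and no source used here says how reads of near-identical copies were assigned, so their levels are uncertain to that extent.

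The small Sm mRNAs are among the shortest of the set, and short transcripts of any kind leaned the same way. Over the 1824 genes whose main transcript is at most 1000 bases long, the median Kif5A over input log2 ratio was -0.70 in dorsal root and -0.47 in sciatic nerve, and the median IgG over input ratio -0.83 and -0.32. The 4 splicing genes in that range, Snrpd1, Snrpe, Snrpf and Prpf31 (whose main transcript keeps an intron), had medians of -1.27 and -0.79 for Kif5A. Between 1000 and 2000 bases the median of all genes was 0.05 and 0.07. Snrpg (1055 bases) and Snrpd2 (1420 bases) fall in that longer range, with Kif5A over input ratios of -1.63 and -1.20 for Snrpg and -1.37 and -1.004 for Snrpd2. The part of length in the Sm values was not tested.

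**Figure D3:**
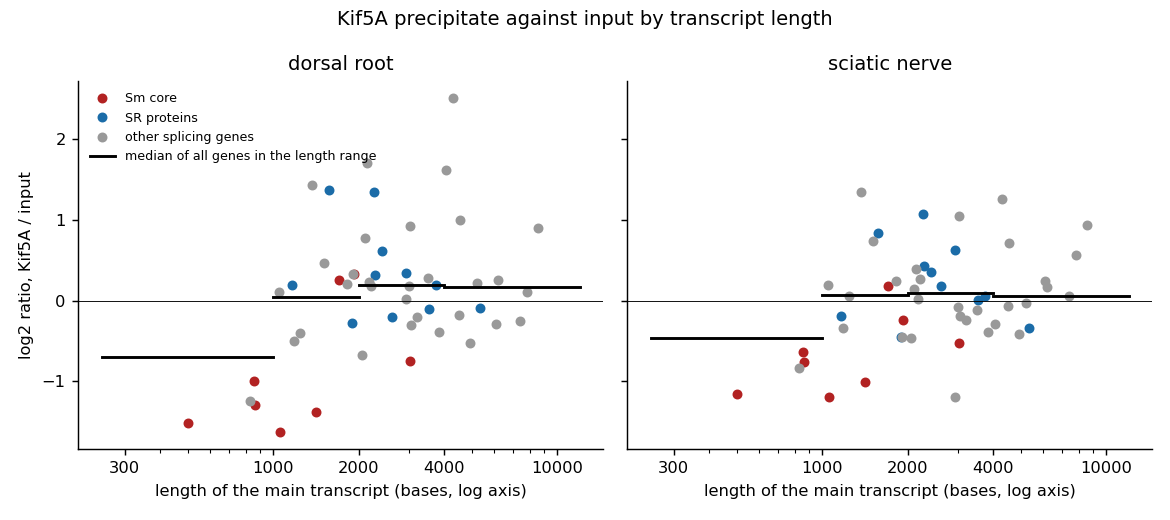
Log2 ratio of Kif5A over input (y axis) against the length of the main transcript in bases (log x axis), 1 point per splicing gene, with Sm core genes in red and SR protein genes in blue. Black bars give the median of all genes in 4 ranges of length: the shortest range lies below 0 in both tissues, and most Sm core genes lie below 0 too.

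Among the 11 SR protein genes no ratio passed the threshold in any comparison. Kif5A over IgG was above 0 for 2 of 11 in dorsal root and 5 of 11 in sciatic nerve, with medians of -0.29 and -0.21. IgG over input was above 0 for 9 and 8 of 11, with medians of 0.59 and 0.47, and Kif5A over input for 7 and 8 of 11, with medians of 0.19 and 0.17. Summed over the 11 genes the level was 1627, 1330.2 and 909 CPM in dorsal root IgG, 1075, 982 and 906 in Kif5A and 985, 1042 and 905 in input. In sciatic nerve it was 1229, 1474 and 937 CPM in IgG, 1061, 976 and 962 in Kif5A and 1103, 1084 and 827 in input. The groups overlapped in both tissues.

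Srsf1, an SR protein that helps choose 5′ splice sites, showed no separation of groups. Dorsal root Srsf1 was at 210.3, 132 and 133 CPM in IgG, 149.6, 91.3 and 92.6 CPM in Kif5A and 148, 137 and 72.1 CPM in input. Sciatic nerve Srsf1 was at 106, 211 and 86.3 CPM in IgG, 129, 94.4 and 66.8 CPM in Kif5A and 151, 153 and 64.6 CPM in input. In both tissues the 3 groups overlapped. Dorsal root Srsf2 was at 240.0, 247 and 154 CPM in IgG, 147, 168 and 189.7 CPM in Kif5A and 169.9, 226 and 219 CPM in input. Sciatic nerve Srsf2 was at 302, 285 and 149 CPM in IgG, 160.4, 139.6 and 196 CPM in Kif5A and 258, 238 and 181 CPM in input. Srsf2, a protein of nuclear speckles, had its lowest IgG library in replicate 3 of each tissue, and its groups overlapped too.

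Srsf3, the smallest SR protein, had overlapping groups in both tissues when its transcripts were summed. Dorsal root Srsf3 was at 158, 222 and 109 CPM in IgG, 164, 138 and 139 CPM in Kif5A and 174, 175 and 161 CPM in input. Sciatic nerve Srsf3 was at 143, 199 and 82.4 CPM in IgG, 156, 171 and 183 CPM in Kif5A and 175, 171 and 107 CPM in input. The log2 ratios to input lay between -0.21 and 0.17 for Kif5A and at -0.06 and -0.09 for IgG. Srsf6, the start of whose poison exon is printed above, had its highest values in IgG. Dorsal root Srsf6 was at 309.6, 279 and 168 CPM in IgG, 183, 149 and 124 CPM in Kif5A and 169, 168 and 156 CPM in input. Sciatic nerve Srsf6 was at 248, 329.9 and 229.8 CPM in IgG, 196, 208 and 145 CPM in Kif5A and 204, 213 and 129 CPM in input. Every IgG library of sciatic nerve lay above every Kif5A and input library, and Kif5A and input overlapped.

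Srsf7, which also serves mRNA export, lay above input in the IgG precipitates. Dorsal root Srsf7 was at 464, 234 and 219.9 CPM in IgG, 268, 256 and 210.4 CPM in Kif5A and 191, 216 and 183 CPM in input. Sciatic nerve Srsf7 was at 278, 263 and 216 CPM in IgG, 245, 214 and 175 CPM in Kif5A and 181, 160.1 and 132 CPM in input. Its IgG libraries lay above all inputs in both tissues, at log2 ratios of 0.64 and 0.68, and Kif5A overlapped with input in both. Dorsal root Srsf5 was at 47.8, 26.2 and 19.0 CPM in IgG, 27.1, 24.3 and 13.6 CPM in Kif5A and 8.38, 6.21 and 10.54 CPM in input. Sciatic nerve Srsf5 was at 10.1, 21.2 and 15.0 CPM in IgG, 20.9, 17.4 and 21.5 CPM in Kif5A and 6.78, 7.24 and 19.4 CPM in input. Srsf5 separated from input in the dorsal root precipitates, with log2 ratios of 1.89 for IgG and 1.37 for Kif5A (edgeR adjusted p = 0.0789 and 0.466), while in sciatic nerve input replicate 3 was as high as the precipitates.

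Dorsal root Srsf11 was at 90.6, 102 and 8.61 CPM in IgG, 40, 39.7 and 24.4 CPM in Kif5A and 34.3, 17.9 and 16.1 CPM in input. Sciatic nerve Srsf11 was at 49.7, 36.2 and 37.3 CPM in IgG, 40.04, 19.9 and 19.6 CPM in Kif5A and 22.3, 28.7 and 11.2 CPM in input. Srsf11, which acts at the 3′ splice site, had its lowest value in dorsal root IgG replicate 3, far under replicates 1 and 2 of that group. Srsf9 is a shorter relative of Srsf1. Dorsal root Srsf9 was at 44.6, 56.4 and 55.1 CPM in IgG, 46.6, 62.9 and 81.5 CPM in Kif5A and 49.5, 60.8 and 57.1 CPM in input. Sciatic nerve Srsf9 was at 34.4, 70.9 and 68.0 CPM in IgG, 76.1, 68.4 and 104 CPM in Kif5A and 63.3, 62.7 and 159 CPM in input. Srsf9 values overlapped throughout and the highest was sciatic nerve input replicate 3.

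Srsf12 gave the largest Kif5A over IgG ratio of the SR genes. Dorsal root Srsf12 was at 19.0, 0.691 and 13.0 CPM in IgG, 6.62, 18.6 and 2.43 CPM in Kif5A and 8.15, 7.91 and 5.77 CPM in input. Sciatic nerve Srsf12 was at 0, 0.195 and 0.454 CPM in IgG, 5.93, 4.20 and 7.68 CPM in Kif5A and 3.39, 4.14 and 4.04 CPM in input. Sciatic nerve IgG was at or near 0 in all 3 libraries, below every Kif5A and input library, while dorsal root IgG ranged over more than an order of magnitude. The sciatic nerve Kif5A over IgG log2 ratio was 4.76 (SE 1.48, unadjusted p = 0.00704, adjusted p = 0.291 by edgeR, higher in 3 of 3 libraries), and DESeq2 called it. IgG over input there was -4.10 (adjusted p = 0.0639) and Kif5A over input 0.62 (adjusted p = 0.991). In the authors' deposited table Srsf12-201 had a Kif5A over IgG log2 fold change of 5.09 and a false discovery rate of 0.00926.

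In sciatic nerve, the pooled noncoding transcripts of the SR protein genes took a larger share in the precipitates than in the inputs. Of the counts on coding and noncoding transcripts of these 11 genes, the noncoding share in sciatic nerve was 8.35, 9.32 and 5.76% in IgG, 7.39, 5.003 and 3.70% in Kif5A and 2.39, 3.53 and 2.27% in input. Both kinds of precipitate were above all 3 inputs there. Dorsal root gave 12.2, 15.5 and 3.06% in IgG, 6.49, 8.07 and 4.24% in Kif5A and 4.76, 2.46 and 2.23% in input, where IgG replicate 3 and Kif5A replicate 3 fell inside the input range. Gene by gene in sciatic nerve, Srsf2 and Srsf3 had both precipitates above all inputs, and Srsf10 had Kif5A alone above them. Shares of Srsf5, Srsf6, Srsf9 and Srsf11 overlapped with input. Srsf1, Srsf4, Srsf7 and Srsf12 had no noncoding transcript in both tables. Over all genes the share lay between 1.21% and 3.51% in the 18 libraries, with 2.04, 1.96 and 1.29% in sciatic nerve Kif5A and 1.68, 1.83 and 1.21% in its input. The 39 other splicing genes had 1.21, 4.24 and 3.01% in sciatic nerve IgG, 3.48, 2.03 and 2.41% in Kif5A and 2.59, 3.15 and 2.19% in input, with overlapping groups.

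**Figure D4:**
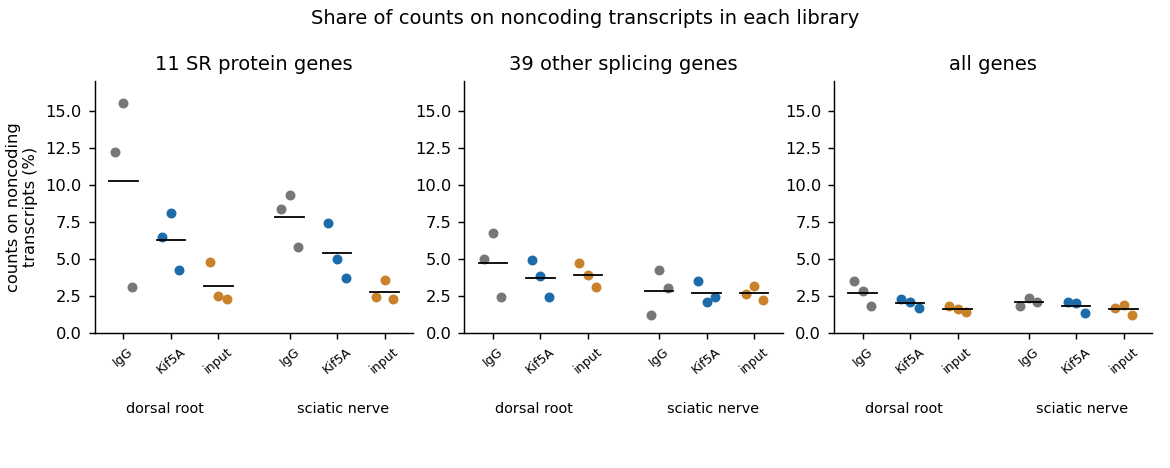
Percent of the counts on coding and noncoding transcripts that fell on noncoding ones (y axis), per library (points) with the mean of 3 (bars), for the 11 SR protein genes, the 39 other splicing genes and all genes. The SR protein genes, pooled, lie at 3.70 to 9.32% in the sciatic nerve precipitates and at 2.27 to 3.53% in its inputs. All genes together stay between 1.21% and 3.51%.

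Counted per transcript, 28 of the 36 noncoding transcripts had an IgG over input ratio above 0 in dorsal root (median 1.41), against 54.8% of all noncoding transcripts tested, and 28 of 36 in sciatic nerve (median 1.08), against 52.4%. For Kif5A over input it was 27 of 36 (median 0.77) against 49.5%, and 22 of 36 (median 0.62) against 52.3%. The 53 coding transcripts stayed near the background: 31 and 24 of 53 for IgG over input (52.6% and 49.5% of all coding transcripts) and 28 and 24 of 53 for Kif5A over input (56.1% and 52.3%). Kif5A over IgG was above 0 for 12 of 36 noncoding transcripts in dorsal root and 12 of 36 in sciatic nerve, against 42.5% and 48.3% of all noncoding ones. Transcripts of 1 gene share reads and are not independent of each other.

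By the same edgeR test run on transcripts, 2 of 89 rose in dorsal root IgG over input, Srrt-201 and Prpf39-202 (1.17% of all transcripts called in either direction). In sciatic nerve IgG over input 4 rose, Srrm2-201, Srrt-201, Srsf3-204 and Prpf4b-201, and 2 fell, Prpf39-202 and Sf3a1-201 (3.9% of all transcripts). Kif5A gave 0 of 89 against IgG in dorsal root (0.0%) and in sciatic nerve (0.0481%), 0 for the difference between tissues (0.0%), and 0 against input in dorsal root (0.0%) and sciatic nerve (0.00593%). At an unadjusted p under 0.05 these were 4, 7, 7, 8 and 6 of 89, against 6.4, 9.21, 7.34, 7.51 and 5.7% of all transcripts. DESeq2 called 0, 4, 3, 3 and 1, against 1.65, 4.48, 2.3, 1.85 and 0.474% of all transcripts with an adjusted p.

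Srsf3-204, the transcript with the kept introns, stood above input in every precipitate, whereas the gene as a whole overlapped with it. Dorsal root Srsf3-204 was at 14.8, 11.4 and 4.53 CPM in IgG, 8.65, 10.51 and 4.19 CPM in Kif5A and 3.24, 2.32 and 1.39 CPM in input. Sciatic nerve Srsf3-204 was at 2.04, 65.0 and 10.49 CPM in IgG, 18.6, 6.36 and 3.01 CPM in Kif5A and 1.603, 1.81 and 1.19 CPM in input. Sciatic nerve IgG spread widely, with replicate 1 lowest and replicate 2 highest. As a share of Srsf3 counts it made up 5.26, 7.61 and 3.01% in dorsal root Kif5A and 1.87, 1.32 and 0.864% in input, and 11.9, 3.73 and 1.64% in sciatic nerve Kif5A and 0.916, 1.06 and 1.12% in input. The sciatic nerve IgG over input ratio was 4.05 (SE 1.06, edgeR adjusted p = 0.0450), and 2.001 (adjusted p = 0.218) without IgG replicate 2. That call was lost in 7 of 14 alternatives, among them also without input replicate 1 or 2. Kif5A over input was 1.75 (adjusted p = 0.744) in dorsal root and 2.57 (adjusted p = 0.790) in sciatic nerve.

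The poison-exon transcript Srsf6-201 followed a similar order in dorsal root. Dorsal root Srsf6-201 was at 33.1, 12.4 and 6.49 CPM in IgG, 4.98, 4.65 and 1.86 CPM in Kif5A and 1.45, 1.19 and 1.39 CPM in input. Sciatic nerve Srsf6-201 was at 5.98, 11.04 and 0.0454 CPM in IgG, 7.37, 3.44 and 0 CPM in Kif5A and 0.432, 0.690 and 0.910 CPM in input. All 6 dorsal root precipitates were above the inputs, whereas replicate 3 of both sciatic nerve precipitates was at or near 0. Its share of Srsf6 counts was 10.7, 4.43 and 3.86% in dorsal root IgG, 2.72, 3.13 and 1.501% in Kif5A and 0.860, 0.711 and 0.894% in input. Dorsal root ratios to input were 3.65 for IgG (adjusted p = 0.185) and 1.502 for Kif5A (adjusted p = 0.872) by edgeR, not past the threshold.

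Srsf2-203, a noncoding Srsf2 transcript, was high in most IgG libraries. Dorsal root Srsf2-203 was at 46.9, 70.5 and 4.88 CPM in IgG, 7.17, 13.6 and 6.83 CPM in Kif5A and 8.27, 3.83 and 2.45 CPM in input. Sciatic nerve Srsf2-203 was at 47.9, 20.7 and 15.0 CPM in IgG, 4.87, 10.8 and 5.79 CPM in Kif5A and 4.32, 4.92 and 1.14 CPM in input. In dorsal root the exception was IgG replicate 3, which lay among the inputs. IgG over input was 3.05 (adjusted p = 0.0745) and 2.99 (adjusted p = 0.0618) by edgeR, and Kif5A over input 0.92 and 1.04. Mettl23 and Mfsd11 overlap Srsf2 on the other strand, so reads of these genes cannot be told apart from its own. Dorsal root Srsf11-208 was at 53.2, 66.1 and 1.66 CPM in IgG, 21.3, 22.7 and 10.2 CPM in Kif5A and 21.8, 11.99 and 8.42 CPM in input. Sciatic nerve Srsf11-208 was at 21.98, 19.6 and 15.9 CPM in IgG, 23.7, 8.06 and 10.3 CPM in Kif5A and 13.5, 21.4 and 7.17 CPM in input. The groups of Srsf11-208, a noncoding transcript with a large part of the Srsf11 counts, overlapped in both tissues. Srsf11-206, with the premature stop printed above, was at 6.08, 5.53 and 0 CPM in dorsal root IgG, 1.86, 3.27 and 3.36 in Kif5A and 0.223, 0.188 and 0.199 in input. Its Kif5A libraries there all lay above the inputs, and IgG replicate 3 had no count.

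**Figure D5:**
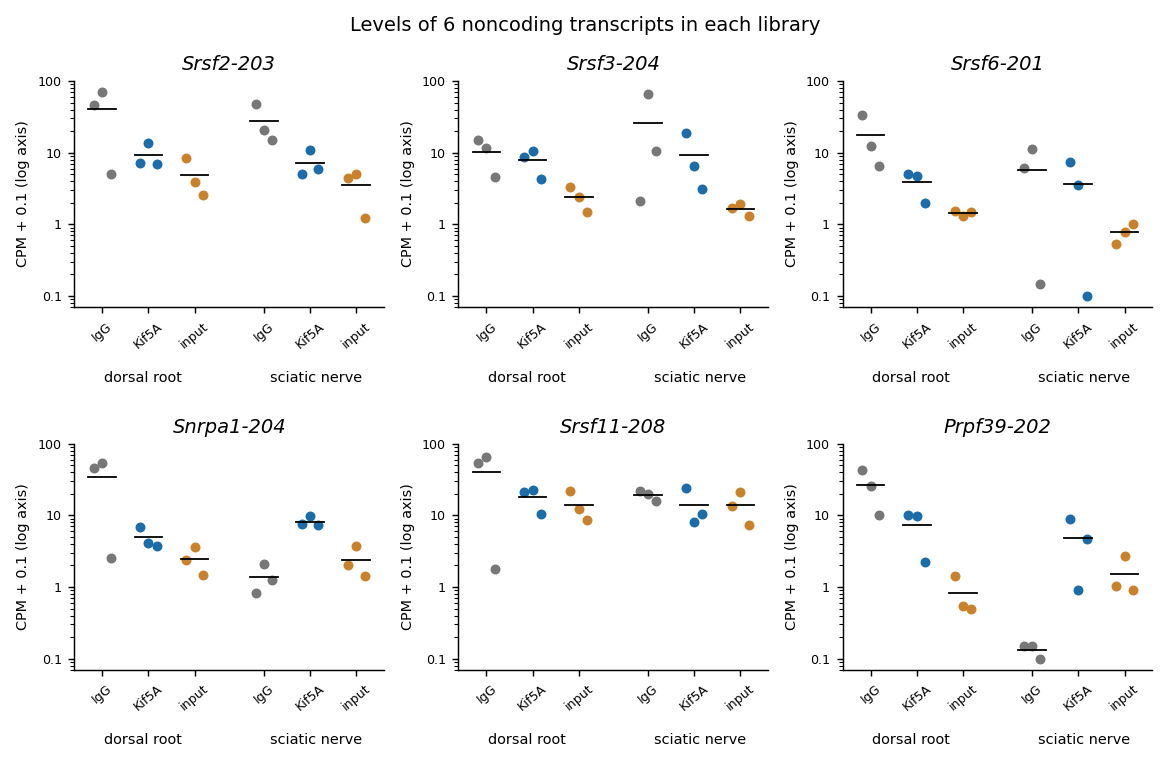
CPM plus 0.1 in each library (log y axis, points are libraries, bars are means of 3) of 6 noncoding transcripts in IgG, Kif5A and input of both tissues. Srsf3-204 lies above input in all 12 precipitates, and Prpf39-202 lies at the bottom of the axis in sciatic nerve IgG alone.

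Snrpa1, the U2 A′ protein, ordered its groups differently in the tissues. Dorsal root Snrpa1 was at 61.9, 65.6 and 34.0 CPM in IgG, 24.0, 22.7 and 31.5 CPM in Kif5A and 36.9, 46.3 and 19.8 CPM in input. Sciatic nerve Snrpa1 was at 20.5, 17.4 and 12.3 CPM in IgG, 21.5, 23.7 and 26.4 CPM in Kif5A and 19.1, 21.6 and 28.0 CPM in input. Summed over its transcripts, dorsal root IgG stood above Kif5A without overlap, while in sciatic nerve Kif5A stood above IgG without overlap. Gm45213 overlaps Snrpa1 on the same strand. The difference of the Kif5A over IgG contrast between tissues was 1.55 (SE 0.606, unadjusted p = 0.0242, edgeR adjusted p = 0.670), short of the threshold. The kept-intron transcript Snrpa1-204 held 74.6% and 80.9% of the Snrpa1 counts in dorsal root IgG replicates 1 and 2, and 3.55% to 40.8% in the other libraries, where the coding Snrpa1-206 was higher. For Snrpa1-206 alone, the authors' deposited Kif5A over IgG log2 fold changes were 0.15 in dorsal root and 0.05 in sciatic nerve. Their false discovery rates were 0.974 and 0.990, so the coding transcript did not show the order of the summed values. Dorsal root Snrpa1-204 was at 46.2, 53.0 and 2.41 CPM in IgG, 6.84, 4.08 and 3.67 CPM in Kif5A and 2.29, 3.52 and 1.39 CPM in input. Sciatic nerve Snrpa1-204 was at 0.729, 2.003 and 1.13 CPM in IgG, 7.43, 9.66 and 7.15 CPM in Kif5A and 1.91, 3.62 and 1.31 CPM in input. The difference of Snrpa1-204 between tissues was 5.41 (SE 1.34, edgeR adjusted p = 0.285), and dorsal root IgG replicate 3 was far below replicates 1 and 2. In sciatic nerve its Kif5A libraries lay above all IgG and input libraries. DESeq2 called this difference.

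The U1 A protein gene Snrpa was low, at 0.838, 0.628 and 1.79 CPM in dorsal root input and 0.370, 0.517 and 0.853 in sciatic nerve input. It was at 2.74, 3.85 and 2.23 CPM in dorsal root Kif5A and 1.62, 1.46 and 1.36 in sciatic nerve Kif5A, above all inputs of the same tissue. IgG was at 3.34, 0.921 and 1.43 CPM in dorsal root and 2.14, 2.34 and 1.82 in sciatic nerve, where all 3 IgG libraries lay above every Kif5A and input library. Its IgG over input ratios were 0.81 and 1.84 (edgeR adjusted p = 0.602 and 0.216). Its Kif5A over input ratios of 1.43 and 1.34 did not pass the threshold (edgeR adjusted p = 0.678 and 0.874). With Prpf39, Srrm2 and Srrt, it was 1 of 4 splicing genes whose Kif5A libraries lay above input in both tissues, where 3.55% of all genes did so. For IgG above input the 4 were Prpf4b, Srrm2, Srrt and Srsf7, against 2.63% of all genes, and for IgG below input Snrpd2, Snrpe, Snrpf and Snrpg, against 5.28%. No splicing gene had Kif5A apart from IgG in the same direction in both tissues, where 1.17% of all genes did so upwards and 0.756% downwards.

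U2af1 and U2af2, the subunits of the factor that reads the 3′ splice site, were low and even. Dorsal root U2af1 was at 23.7, 19.3 and 28.6 CPM in IgG, 16.1, 22.6 and 20.6 CPM in Kif5A and 11.95, 15.7 and 27.3 CPM in input. Sciatic nerve U2af1 was at 21.3, 20.4 and 10.4 CPM in IgG, 15.3, 20.3 and 17.4 CPM in Kif5A and 13.4, 17.1 and 15.9 CPM in input. Dorsal root U2af2 was at 14.3, 18.9 and 10.9 CPM in IgG, 10.01, 14.2 and 15.2 CPM in Kif5A and 8.15, 11.8 and 13.9 CPM in input. All groups of U2af1 overlapped in both tissues. Sciatic nerve U2af2 was at 7.29, 10.01 and 5.49 CPM in IgG, 8.74, 9.90 and 13.4 CPM in Kif5A and 6.97, 7.50 and 17.003 CPM in input. Input replicate 3 was the highest U2af2 value in sciatic nerve. The third gene of the family, U2af1l4, carries transcripts named Gm49396 in the annotation, and Psenen overlaps it on the other strand. Its summed level was 20.4, 16.5 and 8.04 CPM in dorsal root IgG, 6.24, 5.34 and 5.54 in Kif5A and 4.64, 5.52 and 4.97 in input. By this sum IgG stood above both other groups. Noncoding transcripts held 98.7, 100 and 47.9% of these counts in IgG. Their share was 96.5, 93.5 and 82.2% in Kif5A and 92.8, 64.8 and 72% in input.

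Sf3a1, the scaffold of SF3A, was below IgG in dorsal root Kif5A and below input in sciatic nerve IgG. Dorsal root Sf3a1 was at 137, 93.7 and 150.4 CPM in IgG, 72.5, 58.9 and 70.7 CPM in Kif5A and 93.5, 108 and 89.0 CPM in input. Sciatic nerve Sf3a1 was at 13.9, 61.2 and 45.4 CPM in IgG, 47.3, 49.7 and 77.1 CPM in Kif5A and 80.2, 83.8 and 67.2 CPM in input. Neither pair of groups overlapped. The gene-level IgG over input ratio in sciatic nerve was -0.94 (edgeR adjusted p = 0.205), while its coding transcript Sf3a1-201 fell by that test at -1.36 (SE 0.368, adjusted p = 0.0474). The call on Sf3a1-201 was lost in 8 of 14 alternatives, over which its adjusted p ran from 0.00437 to 0.301: without IgG replicate 1 or 2, without any one input library, with library size alone and in both fits of fewer groups. In IgG replicate 2 a noncoding Sf3a1 transcript took 51.6% of the Sf3a1 counts, against 0 in replicates 1 and 3.

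Sf3b1, the branch-point protein often mutated in blood cancers, ranged widely in IgG. Dorsal root Sf3b1 was at 1477, 841 and 289 CPM in IgG, 380.4, 465 and 212 CPM in Kif5A and 355, 316 and 217 CPM in input. Sciatic nerve Sf3b1 was at 1007, 693 and 269.6 CPM in IgG, 433, 540.0 and 194 CPM in Kif5A and 440.4, 461 and 134 CPM in input. Replicate 3 was the lowest of every group. Kif5A over IgG was -1.25 in dorsal root (SE 0.599, edgeR adjusted p = 0.851). Dorsal root Sf3b2 was at 221, 201 and 298 CPM in IgG, 147, 186 and 294 CPM in Kif5A and 182, 219.9 and 317 CPM in input. Sciatic nerve Sf3b2 was at 259, 449 and 330.0 CPM in IgG, 170.3, 239 and 277 CPM in Kif5A and 214, 225 and 372 CPM in input. For Sf3b2, which pairs with Sf3b4 in SF3B, the groups overlapped in both tissues. Dorsal root Sf3b4 was at 10.4, 6.53 and 34.8 CPM in IgG, 25.4, 27.8 and 43.8 CPM in Kif5A and 21.7, 20.7 and 34.5 CPM in input. Sciatic nerve Sf3b4 was at 32.1, 18.9 and 14.0 CPM in IgG, 13.2, 19.2 and 19.0 CPM in Kif5A and 12.2, 16.6 and 41.4 CPM in input. Sf3b4 overlapped between groups except that its Kif5A libraries were lower in sciatic nerve than in dorsal root.

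Prpf39, an alternative splicing factor that joins the U1 snRNP, had the largest IgG over input ratio of the set in dorsal root. Dorsal root Prpf39 was at 61.9, 43.1 and 13.6 CPM in IgG, 13.5, 14.8 and 3.31 CPM in Kif5A and 2.29, 1.13 and 2.12 CPM in input. Sciatic nerve Prpf39 was at 1.70, 4.25 and 8.53 CPM in IgG, 12.1, 6.46 and 8.39 CPM in Kif5A and 2.77, 6.04 and 2.50 CPM in input. In dorsal root the 6 precipitates all lay above the inputs, and IgG and Kif5A overlapped. IgG over input was 4.41 (SE 0.841, edgeR adjusted p = 0.0283). This call was lost in 6 of 15 alternatives, among them without IgG replicate 1 or any one of the inputs. Kif5A over input was 2.51 (SE 0.776, adjusted p = 0.349) in dorsal root and 1.25 (adjusted p = 0.874) in sciatic nerve, and DESeq2 called the dorsal root one. Fkbp3 on the other strand overlaps Prpf39 exons.

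Most of the Prpf39 counts of the dorsal root precipitates sat on the decay target Prpf39-202, which was near 0 in sciatic nerve IgG. Dorsal root Prpf39-202 was at 42.7, 25.4 and 10.1 CPM in IgG, 10.01, 9.82 and 2.12 CPM in Kif5A and 1.34, 0.439 and 0.398 CPM in input. Sciatic nerve Prpf39-202 was at 0.0486, 0.0488 and 0 CPM in IgG, 8.68, 0.801 and 4.61 CPM in Kif5A and 0.925, 2.59 and 0.796 CPM in input. Sciatic nerve IgG held 2 counts of it over 3 libraries, against 234 in Kif5A and 59 in input. Scaled for depth, Kif5A was 136 times IgG (95% interval 37.3 to 1132) and input 41.0 times IgG (95% interval 10.9 to 346), intervals that cover counting error only. By edgeR the Kif5A over IgG contrast had an adjusted p of 0.0918, the fall of IgG against input one of 0.0294, and the difference of Kif5A over IgG between tissues one of 0.152. In dorsal root IgG over input it rose at 5.13 (SE 1.10, adjusted p = 0.0418). That call was lost in 7 of 14 alternatives, among them without IgG replicate 1 or 2 and without any one input. The fall of Prpf39-202 in sciatic nerve IgG was lost in 6 of 14. DESeq2 called Kif5A over IgG in sciatic nerve and the difference between tissues.

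Prpf3, a protein of the U4/U6 snRNP, was near the limit of detection. Dorsal root Prpf3 was at 1.34, 2.69 and 0 CPM in IgG, 1.53, 0.402 and 0 CPM in Kif5A and 1.01, 0.502 and 0.398 CPM in input. Sciatic nerve Prpf3 was at 0.437, 0.424 and 0.177 CPM in Kif5A and 0.370, 1.38 and 0.682 CPM in input, and had no count in any IgG library. Against a floor of 3 counts over the group, Kif5A was at least 7.38-fold higher than IgG and input at least 15.7-fold higher, from 19 and 34 counts. The edgeR adjusted p for Kif5A over IgG was 0.472. Dorsal root Prpf40b was at 0.267, 0.768 and 0.115 CPM in IgG, 0.876, 0.402 and 0.414 CPM in Kif5A and 0.279, 0.188 and 0.0663 CPM in input. Sciatic nerve Prpf40b was at 2.63, 0.586 and 4.77 CPM in IgG, 0.999, 0 and 0.0591 CPM in Kif5A and 0.0617, 0.776 and 0.455 CPM in input. Prpf40b, measured by noncoding transcripts alone, had values near 0 in several libraries and its highest in sciatic nerve IgG.

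Summed over its transcripts, Prpf31, which stabilises the tri-snRNP and is known from inherited retinal degeneration, was below input in both Kif5A groups. Dorsal root Prpf31 was at 38.8, 12.4 and 17.9 CPM in IgG, 22.5, 32.9 and 21.7 CPM in Kif5A and 74.1, 67.9 and 39.6 CPM in input. Sciatic nerve Prpf31 was at 4.77, 21.8 and 40.2 CPM in IgG, 17.8, 11.5 and 19.1 CPM in Kif5A and 28.1, 34.1 and 23.8 CPM in input. Kif5A over input was -1.24 in dorsal root and -0.83 in sciatic nerve (edgeR adjusted p = 0.607 and 0.902). The coding transcript Prpf31-201 alone was at 2.79, 5.23 and 1.86 CPM in dorsal root Kif5A and 0.894, 1.00 and 3.45 in input. In sciatic nerve it was at 5.06, 1.56 and 2.48 CPM in Kif5A and 0.370, 0.604 and 2.73 in input. Kif5A and input of Prpf31-201 thus overlapped in both tissues, with the higher mean in Kif5A. Unlike the pooled SR genes, nearly all its input counts were on noncoding transcripts. In dorsal root the noncoding share was 98.8, 98.5 and 91.3% in input, 87.6, 84.1 and 91.4% in Kif5A and 60.1, 61.5 and 76.5% in IgG. The input of sciatic nerve against that of dorsal root stood at -1.07 (unadjusted p = 0.00700, adjusted p = 0.107 by edgeR), not past the threshold.

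Prpf19, the ubiquitin ligase of the complex named after it, was barely detected. Dorsal root Prpf19 was at 3.21, 0 and 0.861 CPM in IgG, 2.19, 3.56 and 2.79 CPM in Kif5A and 0.670, 0.690 and 1.26 CPM in input. Sciatic nerve Prpf19 was at 3.79, 1.51 and 0.136 CPM in IgG, 1.69, 1.04 and 1.595 CPM in Kif5A and 0.987, 0 and 2.27 CPM in input. Both tissues had a library with no count, and the groups overlapped apart from dorsal root Kif5A and input. Dorsal root Prpf38a was at 30.8, 92.4 and 23.3 CPM in IgG, 65.3, 49.2 and 37.2 CPM in Kif5A and 38.8, 42.7 and 28.8 CPM in input. Sciatic nerve Prpf38a was at 12.9, 36.6 and 10.2 CPM in IgG, 40.5, 34.5 and 32.6 CPM in Kif5A and 19.4, 23.7 and 21.3 CPM in input. Prpf38a, needed to activate the spliceosome, had Kif5A libraries above all inputs in sciatic nerve and not in dorsal root.

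No splicing gene passed the test between the tissues. In input, sciatic nerve against dorsal root called 0 of 49 splicing genes tested (all but Prpf40b), against 4.12% of all genes (3 of 49 at an unadjusted p under 0.05, 14.6% of all genes, and 1 by DESeq2, 8.87%). In Kif5A it called 0 of 50, against 0.988% of all genes (0 at an unadjusted p under 0.05, 6.03%, and 0 by DESeq2, 3.01%). The median log2 ratios were -0.02 and -0.05, with 0.06 and 0.02 over all genes. The smallest unadjusted edgeR p values in input were those of Prpf31, Prpf38a (-0.76), Srsf12 (-0.90) and Srsf9 (0.79). In Kif5A they were those of Prpf4b (0.68), Snrpn (-0.93), Sf3b4 (-0.92) and Srrm2 (0.44).

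Other genes of splicing, 173 listed by function, of which 148 or 149 were tested, were compared in the same fits. No listed gene passed in the 5 comparisons of Kif5A with IgG or input, by edgeR: at an unadjusted p under 0.05 there were 10, 10, 3, 14 and 5 of them, against 5.98, 8.45, 6.37, 8.39 and 6.07% of all genes, for Kif5A over IgG in dorsal root, in sciatic nerve and their difference, and for Kif5A over input in dorsal root and sciatic nerve. DESeq2 called 0, 3, 0, 0 and 0 of them, against 1.21, 3.28, 1.51, 1.64 and 0.468% of all genes. IgG over input called 3 higher in dorsal root (0.56% of all genes), Srek1 at 1.90 (adjusted p = 0.0395), Sart1 at 1.70 (adjusted p = 0.0417) and Cwc27 at 1.75 (adjusted p = 0.0448), and none lower. In sciatic nerve it called 3 higher (1.37% of all genes), all of the list of SR kinases and SR-related proteins: Arglu1 at 1.53 (adjusted p = 0.0196), Srek1 at 1.86 (adjusted p = 0.0268) and Scaf8 at 1.41 (adjusted p = 0.0343). In that list 24 of 30 genes had an IgG over input ratio above 0 in each tissue (52.3% and 50.6% of all genes), with medians of 0.61 and 0.95, and Kif5A over IgG medians of -0.59 and -0.53. Between tissues, Elavl3 and Rbfox1, splicing regulators of neurons, fell in sciatic nerve input at -5.94 and -2.47 (adjusted p = 0.00195 and 0.0415), and Elavl3 in sciatic nerve Kif5A at -5.91 (adjusted p = 0.0106).

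Comparisons per transcript by the submitters are in the authors' deposited table. For dorsal root Kif5A over IgG it lists 0 of 100 splicing transcripts higher and 2 lower at a false discovery rate under 0.05, where 6.05% of all its transcripts are higher and 0.547% lower. The authors' deposited values for these were -1.09 for Sf3b1-201 (false discovery rate 0.0180) and -1.04 for Prpf4b-201 (false discovery rate 0.0132). Against input the authors' deposited table has 2 higher, Srrm2-201 at 0.87 and Prpf39-202 at 3.21, and 4 lower, Snrpd2-201 at -1.73, Snrpg-201 at -1.99, Snrpf-201 at -1.66 and Snrpe-204 at -1.88 (0.731% of all its transcripts higher, 2.16% lower). For sciatic nerve Kif5A over IgG the authors' deposited table lists 4 of 97 higher and 0 lower (5.98% and 0.712% of all its transcripts), among them Srsf12-201, Prpf39-202 at 7.04 and Prpf3-201 at 5.71. These 3 were at or near 0 counts in the sciatic nerve IgG libraries. Against input in sciatic nerve it lists 0 of 97 in either direction (0.55% and 0.644% of all its transcripts).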

How the data were processed

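RNA-seq of 18 libraries was used: IgG precipitate, Kif5A precipitate and input, 3 of each, from dorsal root and from sciatic nerve axoplasm. Per the labels' protocols RNA was taken from the beads and amplified with SMART-Seq v4; the submitters' processing notes name CASAVA 1.8.2, edgeR and the build mm10/GRCm38. The aligner, the counter, its strand setting, how reads of shared exons were assigned and the filter behind the transcript lists are named in no source used here. Per tissue, 1 deposited table holds unnormalized counts of Ensembl transcripts, per the file headers and the values. The same deposited tables hold counts scaled by the authors (signal, not used here), the authors' log2 fold changes and their p-values and false discovery rates, per the file headers.

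Counts of the 16878 transcripts found in both tables were summed into 12697 genes. Library size was the total over named rows, 11584418 to 22580824 counts, and rows without a name took 0.138 to 0.237% of counts and stayed out. Genes near 0 CPM rest on few counts. Genes were tested with edgeR 4.0.16 in R 4.3.3: TMM scaling, filterByExpr by group, robust quasi-likelihood fits, two-sided tests, Benjamini-Hochberg over all genes, threshold 0.05. Kif5A against IgG was fitted on the 12 precipitates, ratios to input on all 18 libraries, and inputs between tissues on the 6 inputs. The filter kept all 50 splicing genes in the first fits and 49 in that of the inputs. The same fits on single transcripts were added after seeing the data. DESeq2 1.42.0, other scaling, no filter, fewer libraries, a replicate block and each library left out were alternatives. The scripts were tested on simulated data. Transcript classes, lengths and sequences came from GENCODE M21.

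Genes named with values were a fixed list of 20 measured splicing genes, those past the threshold, and the 4 with the smallest p in each comparison; genes described beyond these were chosen after their values were seen, and 1 result is not reported here. Members and lists were chosen with earlier results of these data known. The libraries are pools of 5 animals from 3 independent repeats, and the labels do not say that equal numbers mark the same repeat. Same-numbered input libraries deviated together between the tissues (r = 0.240, 0.139 and 0.395 over 11923 genes, so counted as paired by a limit of 0.1), and the fit with that block also called 0 splicing genes. For no other pair of groups did all 3 correlations exceed 0.1. Kif5A with input gave r = 0.175, 0.0400 and 0.130 in dorsal root and 0.0994, 0.290 and 0.334 in sciatic nerve. In each of these tissues 3 of 3 libraries correlated best with their own number, against 1 of 3 for the inputs of the tissues. Whether Kif5A and input libraries were paired cannot be told from these values. Libraries of a group correlated on the log2 scale at 0.806 to 0.829 in IgG, 0.903 to 0.955 in Kif5A and 0.905 to 0.982 in input, so no library repeats another.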

Additional observations from a re-analysis of the deposited data

How the results depend on the processing

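Kif5A over IgG in dorsal root gave 0 splicing genes and 0 splicing transcripts under each alternative run. DESeq2 raised other counts: Kif5A over IgG in sciatic nerve to 1 gene and 4 transcripts, its difference between tissues to 3 transcripts, Kif5A over input to 2 genes and 3 transcripts in dorsal root and 1 transcript in sciatic nerve, IgG over input to 10 genes and 16 transcripts in dorsal root and 6 genes and 13 transcripts in sciatic nerve, and input between tissues to 1 gene. For IgG over input DESeq2 called 11.2% of all genes in each tissue, and 12.5% and 12.8% of all transcripts. Fitting only the 2 groups compared gave 2 genes and 3 transcripts for Kif5A over input in dorsal root, and 0 for IgG over input in both tissues, genes and transcripts alike. Fitting IgG and input libraries alone gave 0 genes and 0 transcripts in dorsal root and 1 transcript in sciatic nerve. Library size alone gave 5 transcripts for IgG over input in dorsal root, and moved the median of all genes there from 0.06 to 0.30, and from 0.06 to 0.39 for Kif5A over input. With a replicate block, IgG over input in dorsal root gave 8 genes and 10 transcripts, and with the block within each tissue 7 genes and 6 transcripts; these numbers are not shown to pair the libraries. The cause of these changes was not tested. The fits of 2 groups held fewer libraries, and the part of that was not tested either.

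Leaving out 1 library at a time, IgG over input gave 0 to 16 genes and 0 to 18 transcripts in dorsal root, and 0 to 4 genes and 0 to 8 transcripts in sciatic nerve. The dorsal root genes were at 0 without IgG replicate 1 or any one input, and at 16 without IgG replicate 3 (10.6% of all genes, and 9.5% of all transcripts for the 18); those of sciatic nerve were at 0 without input replicate 1 or 2 (0.504% and 0.418% of all genes) and at 4 without IgG replicate 3 (6.69% of all genes, and 6.27% of all transcripts for the 8). Input between tissues gave 0 to 4 genes, 4 without sciatic nerve input replicate 3 (20.6% of all genes). No result changed its direction under any alternative run. The IgG libraries held 718 to 1166 genes at 0, against 46 to 255 in the other libraries.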
